A study of Mus musculus with 6 samples.

Results

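The expression of 8 genes that restrain WNT signalling was described in D4 embryoid bodies (EBs, suspended aggregates in which embryonic stem cells differentiate). The genes were chosen by symbol and are Sfrp1, Sfrp2, Sfrp5, Frzb, Dkk1, Dkk3, Notum and Shisa2, 8 of the 23353 genes listed. All 8 were listed in the table, and 7 had enough reads to be tested. RNA-seq was performed on 6 libraries, 3 from W9.5 mouse embryonic stem cells (wildtype, WT) and 3 from EVX1-Δfs cells (Evx1Δfs Clone 14). EVX1-Δfs cells are W9.5 cells in which CRISPR-Cas9 editing left a small frameshift deletion in the homeodomain exon of each Evx1 allele. Both lines were differentiated for 4 days in medium that contained serum and lacked LIF, the cytokine that keeps embryonic stem cells undifferentiated. EVX1-Δfs was represented by 1 clone, so an effect of the edit and a property of this clone cannot be told apart. Each replicate was a differentiation of WT and EVX1-Δfs EBs on a day of its own. Libraries with the same replicate number were taken as a pair only where differences within a replicate number, or fits with it as a block, are given. The main test was unpaired.

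WNT ligands signal by bringing a Frizzled receptor and the co-receptor LRP5 or LRP6 together, which stabilises β-catenin and lets it act with TCF and LEF proteins on target genes. In the gastrulating mouse embryo WNT signalling is high posteriorly, at the primitive streak, and antagonists made by anterior tissues keep it low there. The genes described here act at several steps of the pathway. SFRP1, SFRP2, SFRP5 and FRZB carry a Frizzled-like cysteine-rich domain and bind WNT ligands outside the cell. DKK1 blocks the LRP co-receptors, and DKK3 is a divergent Dickkopf protein whose action on WNT signalling is less settled. NOTUM is an enzyme that removes the lipid that WNT ligands need to bind Frizzled. SHISA2 belongs with them by effect and not by location, since it holds immature Frizzled and FGF receptors in the endoplasmic reticulum and is not secreted.

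Dkk1 is a well-known target of β-catenin and a feedback inhibitor, so the bases upstream of the start were searched for the core of the TCF and LEF binding motif. Upstream sequence from RefSeq (GRCm38.p6, 250 bases before the annotated start) matched 5 of the 8 genes, namely Dkk1, Frzb, Sfrp2, Sfrp5 and Shisa2. The core CTTTGA, read on either strand (TCAAAG on the other), was found in the windows of Dkk1 and Frzb and not in those of Sfrp2, Sfrp5 and Shisa2. Of all 32851 windows of this length, 13.8% held it. The Dkk1 window held it at 2 places, with first bases 174 and 117 bases before the start, and the Frzb window held it at 1 place, 95 bases before the start. The homeodomain core TAATTA, a palindrome, was searched because EVX1 is a homeodomain protein. It was in none of the 5 windows and in 4.84% of all windows. A match is a stretch of letters and not a measured binding site. The windows that held the core are shown, and capitals mark the core.
Dkk1, chr19:30549497-30549746, minus strand: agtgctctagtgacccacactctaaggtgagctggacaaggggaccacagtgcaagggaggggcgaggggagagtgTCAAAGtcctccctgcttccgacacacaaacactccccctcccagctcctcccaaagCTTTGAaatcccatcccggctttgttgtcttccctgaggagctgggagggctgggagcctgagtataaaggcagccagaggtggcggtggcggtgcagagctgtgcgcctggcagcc
Frzb, chr2:80447397-80447646, minus strand: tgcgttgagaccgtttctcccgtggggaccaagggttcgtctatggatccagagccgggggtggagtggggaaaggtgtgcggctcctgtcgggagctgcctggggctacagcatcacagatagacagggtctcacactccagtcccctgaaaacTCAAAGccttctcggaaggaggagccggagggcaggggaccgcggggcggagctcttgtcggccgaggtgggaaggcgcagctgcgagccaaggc

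Between 7597879 and 9914471 reads were assigned to genes per library. WT replicate 3 stood somewhat apart, with correlations of 0.973 to 0.983 with the other libraries on the log2(normalised count + 1) scale, against 0.980 to 0.989 among the other 5. Results that rest on it are given with and without it. Evx1 itself had 2311 ± 119 normalised counts (SD, n = 3) in WT and 2294 ± 258 (n = 3) in EVX1-Δfs. A frameshift leaves the transcript countable, so this level does not check the genotype. Of the marker lists, 10 of 10 primitive streak, 11 of 12 haematoendothelial and 6 of 12 visceral endoderm markers passed the filter, and those below it included Hbb-bh1 (embryonic globin) and the visceral endoderm products Ttr, Afp and Apoa1. Of 13136 genes tested, 660 (5.02%) passed limma's unpaired test at a Benjamini-Hochberg adjusted p under 0.05. EVX1-Δfs was higher for 2.08% and lower for 2.95% of the genes tested. With the replicate number as a block, 222 genes passed by limma.

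Among the 7 WNT antagonists tested, Sfrp1 rose in EVX1-Δfs and 0 fell by limma at an adjusted p under 0.05. At an unadjusted p under 0.05 limma placed 2 higher (Sfrp1 and Shisa2) and 1 lower (Frzb), against 10.7% and 12.4% of all genes tested. DESeq2 called Sfrp1 higher and 0 antagonists lower, where it called 2.44% and 4.45% of the genes it gave an adjusted p. By edgeR, Sfrp1 was higher and 1 gene, Frzb, lower, where 2.35% and 2.87% of its genes were called, and the call of Frzb was lost with the replicate number as a block (edgeR, adjusted p = 0.114). The groups did not overlap for 2 genes that were higher in EVX1-Δfs (Sfrp1 and Shisa2) and for 1 that was lower (Frzb), where 12.2% and 14.7% of all genes tested showed the same. The median log2 fold change of the 7 genes was -0.10, between the quartiles of all genes tested (-0.19 and 0.21). In these bulk samples, fewer cells that express a gene and less RNA per cell cannot be told apart.

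**Figure D1:**
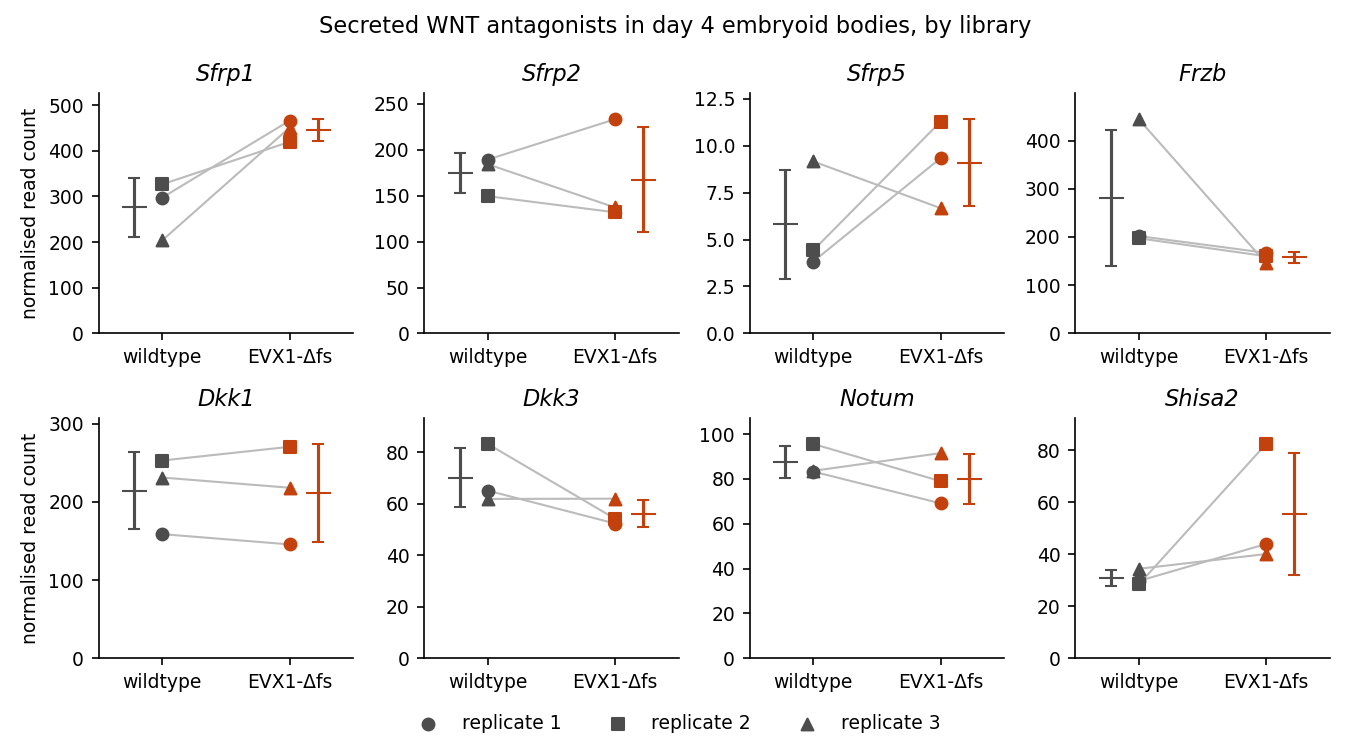
Normalised counts of each WNT antagonist in each library, with a marker shape for each replicate number, grey lines joining the libraries of the same replicate number and, beside the points, the group mean ± SD (n = 3). Sfrp1 lay higher in every EVX1-Δfs library (420 to 466) than in every WT library (204 to 327), and for Frzb WT replicate 3 (444) lay far above the other 5.

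In the NCBIM37 (mm9) annotation, Sfrp1 spans bases 24521974 to 24560104 of chromosome 8 (plus strand), with 4372 exon bases. Its normalised counts were 298, 327 and 204 in WT replicates 1 to 3 and 466, 420 and 451 in EVX1-Δfs replicates 1 to 3. Every EVX1-Δfs library was above every WT library, and WT replicate 3 was the lowest of all. The mean was 276 ± 64.1 (SD, n = 3) in WT and 445 ± 23.6 (n = 3) in EVX1-Δfs. EVX1-Δfs exceeded WT by 0.72 ± 0.15 (SE) on the log2 scale, or 1.64-fold with a 95% interval of 1.32 to 2.04, and limma's adjusted p was 0.0105. The differences within a replicate number were 0.65, 0.36 and 1.14 on the log2 scale, so EVX1-Δfs was higher in each of the 3 pairs. Without WT replicate 3 the log2 fold change was 0.51, with an adjusted p of 0.0341 by limma. With the replicate number as a block and all libraries, limma's adjusted p was 0.0391. The 3 EVX1-Δfs libraries differed by little more than counting error (variance 1.19 times that of counting), and the WT libraries by more (13.9 times).

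Frzb, at bases 80252127 to 80287782 of chromosome 2 (minus strand), gave 202, 197 and 444 normalised counts in WT replicates 1 to 3 and 167, 160 and 146 in EVX1-Δfs replicates 1 to 3. The groups did not overlap, but WT replicate 3 was more than the sum of the other WT libraries. The mean was 281 ± 141 (SD, n = 3) in WT and 158 ± 10.9 (n = 3) in EVX1-Δfs. The difference was -0.72 ± 0.22 (SE) on the log2 scale with an interval (95%) of -1.17 to -0.28, and limma's adjusted p of 0.0527 did not pass. Without WT replicate 3 it was -0.34 with an adjusted p of 0.255, while without WT replicate 1 it was -0.91 (0.0232) and without WT replicate 2 it was -0.92 (0.0165). The size of the difference therefore rested on 1 library. EVX1-Δfs was lower in each pair, by 0.27, 0.30 and 1.60 on the log2 scale. The variance among WT libraries was 69.3 times that of counting, and that among EVX1-Δfs libraries 0.791 times.

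Sfrp2, at bases 83570243 to 83578238 of chromosome 3 (plus strand), had 189, 150 and 184 normalised counts in WT and 233, 132 and 137 in EVX1-Δfs. The groups overlapped, and the EVX1-Δfs libraries held both the highest and the lowest value. EVX1-Δfs differed from WT by -0.10 ± 0.19 (SE) on the log2 scale (limma, adjusted p = 0.792), and the 95% interval of the fold ran from 0.709 to 1.23. Its exons share 347 bases with Gm16790, a gene on the opposite strand.

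Sfrp5, at bases 42272461 to 42276742 of chromosome 19 (minus strand), was close to the limit of detection. It had 4, 5 and 8 reads in WT and 10, 10 and 7 reads in EVX1-Δfs, which gave 5.80 ± 2.92 (SD, n = 3) and 9.09 ± 2.31 (n = 3) normalised counts. The groups overlapped and the gene did not pass the filter on low values. In a fit that kept all genes with any read its log2 fold change was 0.62, with an adjusted p of 0.515 by limma. A difference was not detectable at this depth.

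The 4 of the 8 genes that belong to the secreted Frizzled-related family were also summed. This step was chosen after their values were seen and is given with no test. Sfrp4, also of that family but not of the 8, was left out of the sum. It had 22.1 ± 4.55 (SD, n = 3) normalised counts in WT and 33.1 ± 7.60 (n = 3) in EVX1-Δfs, with an adjusted p of 0.267 by limma. Levels between genes are compared as RPKM, the reads of a gene scaled to its exon length in kilobases and to the reads assigned in that library. On that scale the 4 genes together reached an RPKM of 25.5 ± 2.62 (SD, n = 3) in WT and 27.2 ± 3.32 (n = 3) in EVX1-Δfs, and the groups overlapped. Sfrp1 made up 30.9%, 36.0% and 17.0% of that sum in WT replicates 1 to 3. In EVX1-Δfs replicates 1 to 3 it made up 39.2%, 45.1% and 47.9%. The shares did not overlap, also without WT replicate 3. Sfrp1 and Frzb, which enter these shares, already did not overlap between the groups, in opposite directions, so the shares are not a separate result.

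Dkk1, at bases 30620353 to 30624155 of chromosome 19 (minus strand), gave 159, 253 and 231 normalised counts in WT replicates 1 to 3 and 146, 271 and 218 in EVX1-Δfs replicates 1 to 3. In both genotypes replicate 1 was the lowest and replicate 2 the highest. Between genotypes the log2 fold change was -0.04 ± 0.20 (limma, SE, adjusted p = 0.933), with a 95% interval of the fold of 0.734 to 1.29. Within a replicate number EVX1-Δfs differed from WT by -0.12, 0.10 and -0.08 on the log2 scale. With the replicate number as a block the standard error fell from 0.198 to 0.137. Its upstream window, printed above, holds the TCF/LEF core at 2 places.

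Dkk3, at bases 119259533 to 119302571 of chromosome 7 (minus strand), had 65.1, 83.2 and 61.8 normalised counts in WT and 52.3, 54.1 and 61.9 in EVX1-Δfs. The highest EVX1-Δfs library just exceeded the lowest WT library. Its log2 fold change of -0.31 ± 0.21 (limma, SE) had an adjusted p of 0.404 and a 95% interval of the fold of 0.596 to 1.10.

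Notum, at bases 120515102 to 120522489 of chromosome 11 (minus strand), had 83.2, 95.6 and 83.6 normalised counts in WT and 69.1, 78.9 and 91.5 in EVX1-Δfs. The groups overlapped. EVX1-Δfs differed from WT by -0.14 ± 0.19 (limma, SE) on the log2 scale, with an adjusted p of 0.715 and a 95% interval of the fold of 0.690 to 1.20. Its exons share 918 bases, summed over both genes, with 4732444A12Rik and Gm11768 on the opposite strand. As for Sfrp2, whether this affects the count depends on how strand was counted, which was not checked from reads.

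Shisa2, at bases 60244118 to 60250495 of chromosome 14 (plus strand), had 29.7, 28.3 and 34.4 normalised counts in WT replicates 1 to 3. EVX1-Δfs replicates 1 to 3 had 43.9, 82.3 and 40.0. Every EVX1-Δfs library was above every WT library, and EVX1-Δfs replicate 2 was far above the rest. This gave a log2 fold change of 0.76 ± 0.28 (SE), a point estimate close to that of Sfrp1, with a 95% interval of the fold of 1.14 to 2.52. Limma's adjusted p of 0.107 did not pass, and without EVX1-Δfs replicate 2 the log2 fold change was 0.44 with an adjusted p of 0.369.

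**Figure D2:**
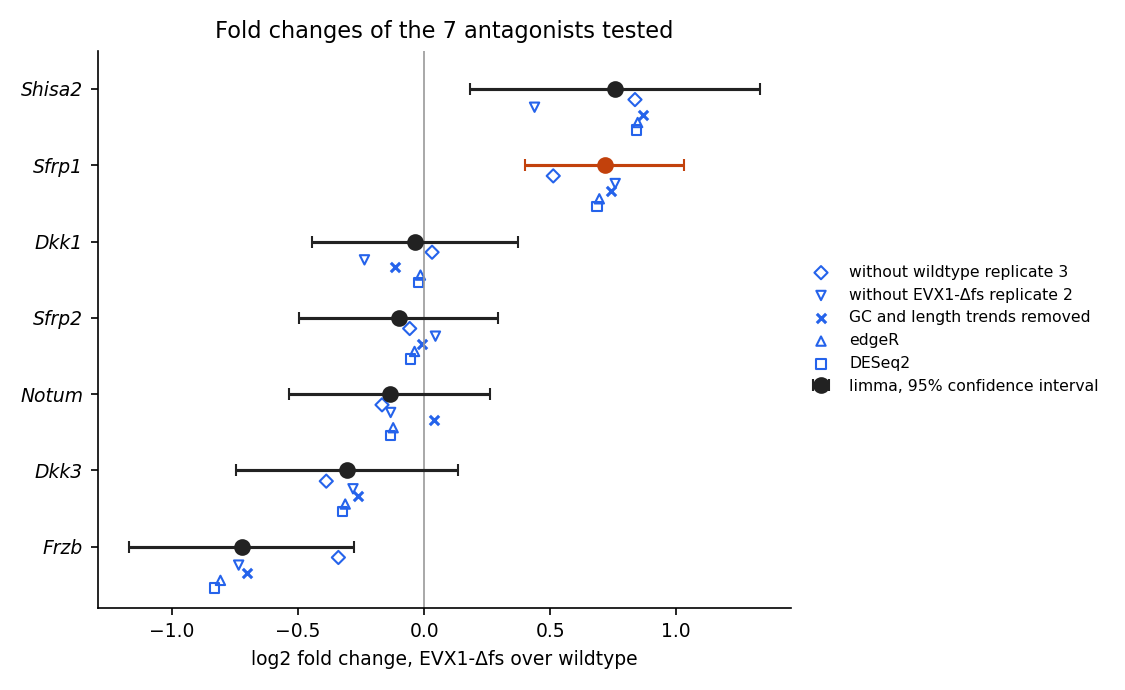
Log2 fold change of EVX1-Δfs over WT for each tested WNT antagonist, as limma's estimate with its 95% interval (red where the adjusted p was under 0.05) above blue symbols for 5 alternatives, namely DESeq2, edgeR, GC and length trends removed, and without WT replicate 3 or EVX1-Δfs replicate 2. Without WT replicate 3, Sfrp1 was at 0.51 and Frzb at -0.34, and without EVX1-Δfs replicate 2 Shisa2 was at 0.44.

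Per length, the antagonists were ordered by their mean level in WT. Dkk1 (RPKM 9.68 ± 2.32, SD, n = 3), Frzb (9.38 ± 4.24), Sfrp2 (8.86 ± 0.919) and Sfrp1 (6.97 ± 1.90) followed each other with overlapping ranges. Notum (3.99 ± 0.476), Dkk3 (2.30 ± 0.472), Shisa2 (1.07 ± 0.0586) and Sfrp5 (0.330 ± 0.150) lay below them, each apart from the next in order. In EVX1-Δfs the order began with Sfrp1 (11.9 ± 0.624), whose range overlapped that of Dkk1 (10.2 ± 3.12), which overlapped that of Sfrp2 (9.06 ± 2.89). Frzb (5.69 ± 0.257) came next and lay apart from Sfrp2 and from Notum (3.89 ± 0.642). Shisa2 (2.06 ± 0.864) and Dkk3 (1.96 ± 0.227) overlapped, and Sfrp5 (0.558 ± 0.136) was again the lowest. The order of the 4 highest genes in WT rested on WT replicate 3. Without it the means were 9.57 for Dkk1, 8.84 for Sfrp2, 8.03 for Sfrp1 and 6.93 for Frzb, so Frzb and not Sfrp1 was the lowest of the 4.

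**Figure D3:**
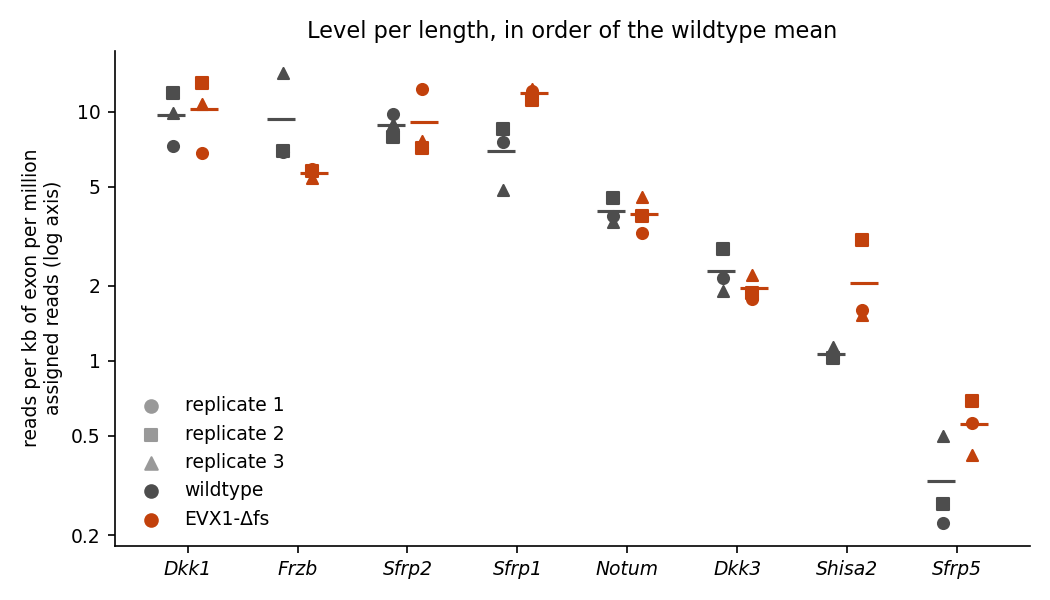
Level per length of each WNT antagonist in each library, in RPKM on a log axis, with a marker shape for each replicate number and a bar at the group mean. In WT the means of Dkk1, Frzb, Sfrp2 and Sfrp1 lay between 6.97 and 9.68 (without WT replicate 3 that of Frzb was 6.93), and in EVX1-Δfs Sfrp1 had the highest mean, 11.9, and Frzb 5.69.

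The other genes of the pathway were described by lists of ligands, receptors and targets. For comparison, limma called 2.08% of all genes tested higher in EVX1-Δfs and 2.95% lower. At an unadjusted p under 0.05 limma placed 10.7% higher and 12.4% lower. Of 18 other WNT inhibitors, 13 were tested, 1 rose and 1 fell, and the median log2 fold change was 0.29, against 0.00 for all genes tested. Cer1, a secreted antagonist of Nodal, BMP and WNT made by anterior visceral endoderm, rose from 33.9 ± 14.3 to 377 ± 72.8 normalised counts (SD, n = 3 each), with a log2 fold change of 3.49 ± 0.23 (SE) and an adjusted p of 2.37e-09 by limma. Apcdd1, a membrane-bound inhibitor that binds WNT ligands and LRP5, fell by 0.74 on the log2 scale (adjusted p = 0.00903). Wif1, Dkk2, Dkk4, Sost and Sostdc1 were below the filter.

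Of 19 WNT ligands, 14 were tested, 5 fell and 0 rose by limma (0 rose at an unadjusted p under 0.05 and 0 by DESeq2 or edgeR), and their median was -0.19. They were Wnt3a (-1.75, adjusted p = 0.0131), Wnt2 (-1.26, 0.0122), Wnt5a (-1.04, 1.81e-04), Wnt5b (-0.85, 1.65e-04) and Wnt3 (-0.55, 0.00877), of which WNT3 is required to form the primitive streak. With the replicate number as a block the adjusted p of Wnt3a was 0.0564. Of 18 receptors and co-receptors, 17 were tested and 2 fell, Lrp5 (-0.44, adjusted p = 0.0323) and Fzd10 (-0.44, 0.0338), but with the replicate number as a block neither passed (0.0734 and 0.0733). None of the receptors rose by limma, DESeq2 or edgeR, with 2 higher at an unadjusted p under 0.05, and the median was 0.10. Of the 4 R-spondins, secreted WNT enhancers, 3 were tested and 0 passed by limma in either direction, 0 at an unadjusted p under 0.05 and 0 by DESeq2 or edgeR.

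All 13 WNT target and feedback genes were tested, 6 fell and 0 rose by limma (0 at an unadjusted p under 0.05, 0 by DESeq2 or edgeR), and the median was -0.55. Those that fell were the posterior transcription factor Cdx2 (-0.70, adjusted p = 0.00903), the BMP ligand Bmp4 (-0.62, 0.0163), the streak and mesoderm factor T (-0.58, 0.0122), the WNT effector Lef1 (-0.58, 0.0168), the feedback inhibitor Nkd1 (-0.57, 0.00729) and the cyclin Ccnd1 (-0.51, 0.0107). With the replicate number as a block T did not pass (adjusted p = 0.0566). Axin2, a general feedback target of the pathway, had a log2 fold change of -0.16 with an adjusted p of 0.493. Dkk1, itself a target, had -0.04, as above.

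**Figure D4:**
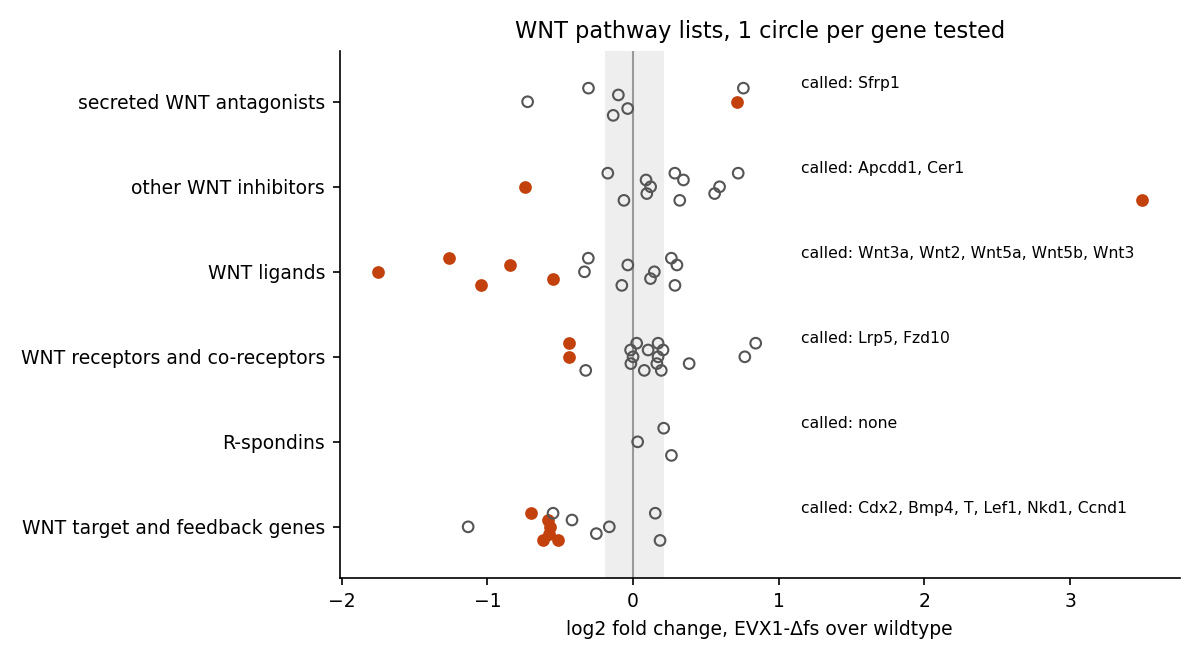
Log2 fold change of every tested gene of the 8 antagonists and of 5 other WNT pathway lists, 1 circle per gene, filled where limma's adjusted p was under 0.05, with the grey band spanning the quartiles of all genes (-0.19 to 0.21). The 5 ligands and 6 targets called lie to the left, as do the inhibitor Apcdd1 (-0.74) and the receptors Lrp5 (-0.44) and Fzd10 (-0.44). Cer1 (3.49) lies far to the right, and Sfrp1 is the antagonist of the 8 that was called.

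Cell type markers moved between the genotypes as well. Beside the counts below, limma called 2.08% of all genes tested higher and 2.95% lower, and 10.7% and 12.4% at an unadjusted p under 0.05. DESeq2 called 2.44% and 4.45% of its genes, and edgeR 2.35% and 2.87%. Some genes stand in more than 1 list, so the counts are not separate results. Wnt3 and T, called above, are among the streak markers that fell, and Bmp4 is among the lateral and cardiac ones. T is also the notochord and node marker that fell, and Cer1, called above, is an endoderm marker that rose. Mesp1 fell in both the streak and lateral lists, and Foxa2 rose in both the endoderm and notochord lists. The summed normalised counts of the 10 primitive streak markers were 15675 to 19178 in WT and 10938 to 14189 in EVX1-Δfs, and 5 of 10 fell and 0 rose. Those of the lateral and cardiac mesoderm list were 7996 to 10794 in WT and 4744 to 5692 in EVX1-Δfs, with 5 of 10 tested lower and 0 higher. Paraxial mesoderm (1409 to 1682 against 989 to 1260, 5 of 8 tested lower, 0 higher) and haematoendothelial markers (3548 to 4683 against 2277 to 2595, 4 of 11 tested lower, 1 higher) moved the same way. The anterior visceral and definitive endoderm list spanned 4802 to 8053 in WT and 5956 to 7003 in EVX1-Δfs, with 3 of 11 tested higher and 1 lower. Visceral endoderm markers spanned 5375 to 6540 and 4777 to 5129, with 0 of 6 tested passing by limma (0 higher and 3 lower at an unadjusted p under 0.05, 0 by DESeq2 or edgeR). Most of that sum was Apoe (5191 to 6399 in WT and 4626 to 4962 in EVX1-Δfs), a gene named after its values were seen. Neurectoderm markers spanned 3154 to 4211 in WT and 3680 to 4086 in EVX1-Δfs (1 of 5 tested lower, 0 higher), and notochord and node markers spanned 8540 to 11465 and 7546 to 8764 (1 of 6 tested higher, 1 lower). Pluripotency and epiblast markers spanned 18139 to 27252 in WT and 22316 to 27431 in EVX1-Δfs (1 of 11 higher, 0 lower, and 5 higher by DESeq2 or edgeR). In this list and in the anterior visceral and definitive endoderm list, WT replicate 3 had the highest WT sum. Without that library every EVX1-Δfs sum lay above every WT sum in both lists. With the replicate number as a block limma called 76 genes higher and 146 lower of all 13136 tested. Among the markers it called 3 streak, 3 paraxial and 4 lateral and cardiac ones lower. Of the haematoendothelial markers it called 1 higher and 4 lower. Of the anterior visceral and definitive endoderm markers it called 1 higher (Cer1) and 1 lower (Cxcr4). It called 0 of the neurectoderm, pluripotency or notochord markers in either direction. The part of these shifts in the levels of Sfrp1, Frzb or the other antagonists was not tested.

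The genes whose profile over the 6 libraries was most like that of each antagonist were taken by Pearson r of log2(normalised count + 1), as a description. For Sfrp1 they were Dcaf17 (0.998), Ugcg (0.996) and Eif5a2 (0.994), and 620 genes had an r over 0.9. For Frzb they were Adsl (0.999), Txnl4a (0.996) and Rps4y2 (0.994), with 437 genes over 0.9. Frzb was far higher in WT replicate 3 (444 normalised counts) than in any other library, so its r values rest largely on that library. They were not computed without it. For Dkk1, with 95 genes over 0.9, they were Tab2 (0.992), Crispld2 (0.992) and 4833439L19Rik (0.984). The other 4 antagonists tested had 53 (Notum) to 117 (Shisa2) such genes of 13136. Each r rests on 6 libraries that include both genotypes, so a difference between genotypes enters it. The closest to Shisa2 were Klhl12 (0.992), Slc35e3 (0.984) and Golph3 (0.981), to Sfrp2 Dync2li1 (0.991), Ptrhd1 (0.976) and AI462493 (0.972), to Dkk3 Ighmbp2 (0.999), Sec31a (0.994) and Cxcr7 (0.990), and to Notum Stard3nl (0.991), Map3k8 (0.987) and Brd7 (0.982). None of these 21 genes is another antagonist of the 8.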

How the data were processed

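mRNA-seq was performed on D4 EBs of 2 genotypes with 3 libraries each, sequenced on an Ion Proton. The labels gave the group and replicate number of each library. The submitters' processing notes name mm9, TopHat2, HTSeq and DESeq2. The authors mapped and counted the reads and tested HTSeq's output with DESeq2 at standard settings. Versions and the gene annotation are not given in the sources used here. HTSeq's standard settings count by strand. Strand was not checked from reads.

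The values the authors deposited are a signal of 0 or above, namely reads per gene divided by 1 factor per library. All values (100%) were whole multiples of 1 read within 0.01 read, and the factors differed from DESeq2's size factors by at most 0.00577%. The recovered reads, 7597879 to 9914471 per library, served for the count tests and for levels per length (RPKM, computed from those reads). The intervals given for fold changes come from limma's fit, so they rest on the spread between libraries and not on counting error alone. No molecular identifiers were used.

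Fold changes (EVX1-Δfs over WT) were tested with limma 3.58.1 (R 4.3.3, mean-variance trend) on log2(normalised count + 1), which understates changes of low genes, over the 13136 genes with at least 10 normalised counts in at least 3 libraries. P-values were adjusted by the Benjamini-Hochberg method over all of these genes, and 0.05 was the threshold. Replicates were separate differentiations. Alternatives were TMM and upper-quartile scaling, pseudocounts of 4 and 16, all genes with any read, DESeq2 1.42.0 and edgeR 4.0.16 (quasi-likelihood, with its own filter on low counts) on recovered reads, the replicate number as a block in limma and edgeR, removal of GC and length trends with and without that block, and each library left out in turn. Exon lengths, positions and GC content came from the NCBIM37 annotation, matched by symbol for 94.1% of the genes listed. Levels per length used merged exons. The longest transcript in their place, and levels without WT replicate 3, were alternatives chosen after seeing the data. The tests were run on simulated data first.

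Each replicate was, per the study's design, a differentiation of both genotypes set up together on a different day. Equal replicate numbers were read as the same day. On that reading alone libraries were paired, in the block fits and in the differences within a replicate number. The deviations of same-numbered libraries from their group means correlated at 0.11, 0.00933 and -0.10 over 13136 genes for replicates 1 to 3, so the values did not themselves show the pairing.

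The 8 genes and all lists were chosen with earlier results of these data known, and the lists are not independent evidence. The genes named are the 8, Evx1 and the called genes of each pathway list (up to 6 per list). The 3 tested genes with the highest r to each of the 8 are also named. Axin2, Apoe, Sfrp4, Cxcr4, Mesp1, Foxa2 and the markers below the filter were chosen after their values were seen. Upstream sequences were taken from RefSeq (GRCm38.p6), a build other than that of the data, and were used only for their letters.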

Additional observations from a re-analysis of the deposited data

How the results depend on the processing

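Sfrp1 was called higher under all 11 other fits with all libraries and all 6 without 1 library, with a log2 fold change of 0.51 to 0.85 and an adjusted p of 0.00300 to 0.0481. For the 7 antagonists tested, 107 of 119 alternative values had the main sign and call, 5 newly passed (all Frzb, by pseudocounts of 4 and 16 and edgeR, and without WT replicate 1 or 2) and 7 changed sign. The antagonists called lower thus numbered 1 under each of these fits, and 0 to 1 when each library was left out. The adjusted p of Frzb was 0.0499, 0.0484 and 0.0329 with pseudocounts of 4 and 16 and edgeR, and over all alternatives it ran from 0.0165 to 0.255. With 1 library left out, the log2 fold change of Sfrp2 ran from -0.36 to 0.0447 and that of Dkk1 from -0.24 to 0.21. Notum was 0.0405 with GC and length trends removed, with and without the block.

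Against 273 genes higher and 387 lower in limma, the replicate block left 76 and 146, and 67 and 126 in edgeR. Besides those named above, the block changed no call of an antagonist or pathway gene in limma. Over the 12972 genes with a GC content and length, limma's log2 fold change had a Spearman correlation of -0.46 with exon GC content. With GC and length trends removed 97 genes were called higher and 181 lower, and 72 and 133 with the block as well. Bmp4 also lost its call with trends removed (limma, adjusted p = 0.0529, and 0.0600 with the block), which left 5 targets called lower, and 4 with the block as well. Leaving out a library gave 80 (without EVX1-Δfs replicate 3) to 340 higher and 140 (without EVX1-Δfs replicate 1) to 362 lower. Of all calls 41.4% were higher, and 53.2% with upper-quartile scaling (370 higher, 325 lower). The receptors called lower fell from 2 to 0 with the block in limma and edgeR and with trends removed, with and without the block, and numbered 0 to 2 without a library. Without a library, 3 to 5 ligands, 2 to 7 targets and 0 to 1 other inhibitors were called lower, the lowest counts all without EVX1-Δfs replicate 1, with the ligands also at 3 without WT replicate 3. DESeq2 gave Wnt3a no adjusted p. The cause of these changes was not tested. The longest transcript in place of merged exons moved no level per length by more than the spread. Depth limits Sfrp5 (44 reads in all) most.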
